A study of Homo sapiens with 20 samples.

Results

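The 182 features described here are transcript models that carry only an assembly ID, a name that begins with 48HRS followed by a number, in poly(A) RNA sequencing of human embryonic stem cells before and after endoderm differentiation. They were chosen by raw count, as the rows with that prefix whose counts summed to 100 or more over the 12 libraries. They are 182 of the 4398 rows with the prefix and of the 54435 rows in all. The remaining 48HRS rows were nearly empty, with 1572 at 0 in every library, 1604 with 1 to 9 counts and 1040 with 10 to 99. The 182 models held 179343 of the 214751 counts on 48HRS rows, or 83.5%. Just inside the threshold lay 48HRS.14661.1, 48HRS.21019.1 and 48HRS.29408.1 with 100 counts each, and just outside it 48HRS.36332.1, 48HRS.21026.1, 48HRS.16453.1 and 48HRS.7548.1 with 97 each. A total over all libraries can be reached through a single group, so a model near the threshold may be among the 182 because that group was high, and 42 of the 182 would fall under it without the counts of their highest group. Beside models at the edge, those described below are 48HRS.39166.1, 48HRS.45129.1, 48HRS.41361.1, 48HRS.44988.1, 48HRS.24348.1, 48HRS.28007.1, 48HRS.23148.1, 48HRS.48173.1, 48HRS.471.1 and 48HRS.29408.1, whose differences are given as descriptions. Of the 182, 70 had fewer than 200 counts.

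The cells are H1 (WA01), an established human embryonic stem cell line grown without feeder cells. Unedited H1 cells (WT) were compared with H1 cells labelled DIGIT KO1 and DIGIT KO2, 2 knockouts of the long noncoding RNA gene DIGIT in the same line, which are treated here as 1 clone each. DIGIT is transcribed divergently from the homeobox gene GSC. At day 0 each line was in mTeSR1, a medium that keeps the cells undifferentiated. At day 4 each had been differentiated in RPMI with B27 supplement and 50 ng/ml Activin A, a ligand that signals through SMAD2 and SMAD3 and drives these cells to endoderm. Each of the 6 groups had 2 libraries, and nothing in the labels says that these came from separate cultures, so p-values measure the spread between libraries, which may be technical. A difference between a clone and WT is a difference between 2 lines and cannot be told apart from variation between clones. Rows for DIGIT under its other names (LOC108868751, NR_144432, GSC-DT) numbered 0, so DIGIT's own level is not analysed here, and that the clones lack it rests on the labels.

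Transcript models of this kind are built by assembling aligned reads into exon chains, and a model with no coding potential outside known genes is listed as a candidate long noncoding RNA. Long noncoding RNAs are transcribed by RNA polymerase II, are often spliced and polyadenylated, and in embryonic stem cells many start divergently at promoters of coding genes. They are on the whole less abundant and more restricted to a cell state than messenger RNAs. The files pair the models with no coordinates, lengths, strands, neighbouring genes or sequences, none of the 182 names matched the reference gene tables, and what the prefix stands for is not given in the sources used here. That the models are assembled and noncoding therefore comes from the working name of the set and was not tested. The 182 names carried 180 distinct numbers, and 164 ended in the suffix 1.

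The libraries held 9942016 to 21394547 counts on features, of which the 182 models took 0.0855% to 0.138%. All 182 were measured at a level that passed edgeR's filter on low counts, and 173 had a count in every library. Values below are CPM, counts brought to a common library total after TMM scaling. They are not corrected for length, so they order libraries within a model and not models against each other. The highest total was 17128 counts for 48HRS.8700.1 and the median total was 305. The 8 models with the most counts held 39.7% of the counts on the set.

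The labelled cell states were checked with marker lists. The summed level of 8 definitive endoderm markers, among them SOX17, FOXA2 and CER1, was 68.5 to 88.2 CPM over the day 0 libraries. At day 4 it was 4640 to 5050 CPM in WT, 5024 to 5088 CPM in KO1 and 909 to 1138 CPM in KO2. KO2 thus lay below both other lines after differentiation, with no overlap. CER1 made up most of the day 4 sums, with group means of 4032 (WT), 4490 (KO1) and 866 (KO2). It was the only marker of this list with a higher day 4 mean in KO1 than in WT. SOX17, FOXA2, CXCR4, GATA4, GATA6, HHEX and KIT had lower means in KO1. The KO1 mean of CXCR4 was 55.6 CPM against 151.5 for WT cells, and that of GATA6 174.8 against 185.9. The 8 pluripotency markers, among them POU5F1 and NANOG, summed to 6125 to 6534 CPM at day 0. At day 4 they summed to 4434 to 4502 CPM in WT, 4191 to 4304 CPM in KO1 and 5385 to 5390 CPM in KO2. The sums thus stayed high in all 3 lines, with most from LIN28A and DNMT3B. As WT means, SOX2 went from 215.9 to 111.6 CPM, DPPA4 from 701.6 to 389.5 CPM and DNMT3B from 2233 to 1042 CPM. Only NANOG and TDGF1 had a higher day 4 mean in WT. At day 4, LIN28A and TDGF1 had their lowest means in KO2 and the other markers of this list their highest. Of the lists for other cell types, 4 fibroblast markers summed to 784 to 926 CPM at day 0 and 411 to 508 CPM at day 4. Of these, DCN was at no more than 0.164 CPM in any group mean. THY1, COL1A2 and COL1A1 were well expressed, at 522, 204 and 147 CPM in WT at day 0. The 5 neuroectoderm markers summed to 83.7 to 120.5 CPM at day 0 and 116 to 305 CPM at day 4, most of it from OTX2, a gene that early endoderm also expresses. The 6 mesoderm markers summed to 213 to 363 CPM at day 0 and 122 to 176 CPM at day 4, most of it from KDR, a receptor that undifferentiated cells also express. The 6 primitive streak and mesendoderm markers summed to 2.52 to 4.58 CPM at day 0, and at day 4 to 574 to 749 CPM in WT, 871 to 873 CPM in KO1 and 246 to 271 CPM in KO2. The 5 trophoblast and extraembryonic markers summed to 11.7 to 13.5 CPM at day 0 and 6.87 to 17.1 CPM at day 4. As group means, CDX2 was at 0 in KO1 at day 4 and at or below 0.264 CPM elsewhere. KRT7 was at 8.64 to 9.65 CPM at day 0, and AFP was at 11.5 CPM in KO1 at day 4. The part of these cell types in the changes of the models was not tested. In bulk RNA, fewer cells of a type and less RNA per cell cannot be told apart.

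One pair of libraries stood apart. The KO1 day 0 libraries differed from each other by a chi-square of 6.59 per model, against 1.16 to 2.09 in the other 5 pairs. Over all features tested the same statistic was 21.8, against 1.89 to 3.88, so the difference was not particular to the models. These libraries also held the most counts, 17859275 and 21394547, and the same relative difference gives a larger chi-square at higher counts. Among the 41 models with 1000 or more counts, 32 were higher in replicate 2 of KO1 day 0 than in replicate 1, 8 of them by 1.5 times or more, and none was lower by that much. The furthest apart were 48HRS.41873.1, at 6.48 and 12.5 CPM, and 48HRS.40240.1, at 15.5 and 27.9 CPM. Every comparison shares the estimate of the spread that these libraries enter. The number of models called in each comparison is given below with and without each of them. Counts over several lines, or by class of total count, are given with all libraries only.

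**Figure D1:**
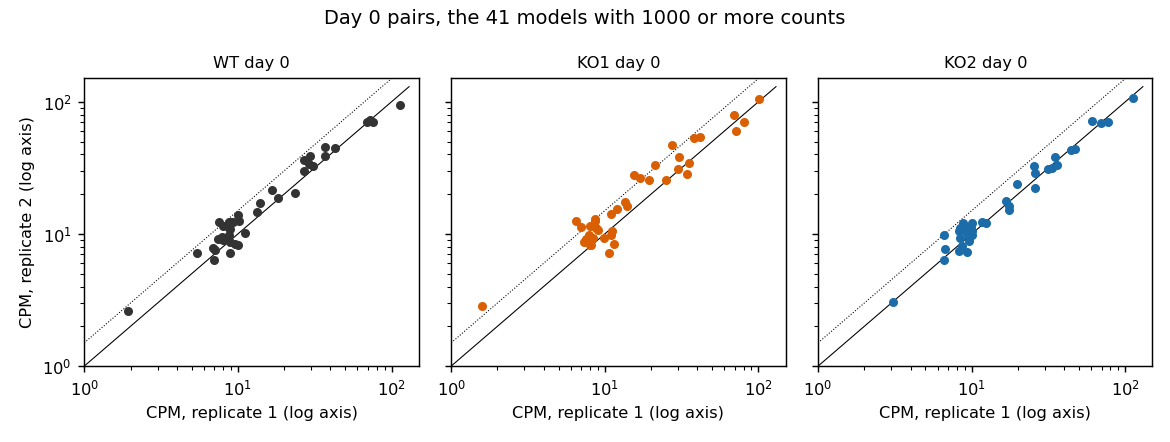
CPM of the 41 models with 1000 or more counts in replicate 1 (horizontal, log axis) and replicate 2 (vertical, log axis) of WT, KO1 and KO2 at day 0. Each point is 1 model, the solid line marks equal levels and the dotted line 1.5 times more in replicate 2. In KO1, 8 points lie on or above the dotted line.

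The set as a whole took a smaller share of the counts after differentiation. It held 0.113% and 0.123% of the counts in the WT day 0 libraries, 0.116% and 0.138% in KO1 and 0.119% and 0.124% in KO2. At day 4 the shares were 0.0901% and 0.0948% for WT cells, 0.0912% and 0.0905% for KO1 cells and 0.0868% and 0.0855% for KO2 cells. Every day 4 library lay below every day 0 library. The 3 lines overlapped at day 0, and at day 4 KO2 lay below the other 2. Another family of ID-only rows, whose names begin with SCRIPTURE, also took less at day 4 in every library, 0.714% to 0.760% against 0.927% to 1.12% at day 0.

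**Figure D2:**
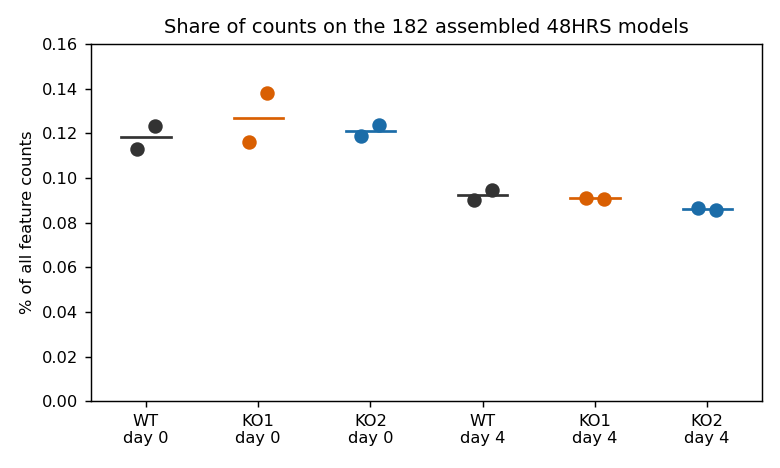
Share of all feature counts, in percent, on the 182 models in each library, by line and day. Points are libraries and short bars are means of 2. The 6 libraries of day 4 sit between 0.0855% and 0.0948%, below the 6 of day 0 at 0.113% to 0.138%.

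Falls outnumbered rises with differentiation in all 3 lines. In WT, 26 of the 182 models were called higher at day 4 than at day 0 and 55 lower (edgeR quasi-likelihood test, Benjamini-Hochberg adjusted over the 16792 features tested, threshold 0.05). Of all features, 24.3% were called higher and 25.4% lower, while of the models 14.3% were higher and 30.2% lower. The median log2 change of the models in WT was -0.31, against -0.00 over all features. Of the WT calls, 21 rises and 30 falls were of at least 1 on the log2 scale. Without WT day 0 replicate 1 the number higher was 15, without WT day 4 replicate 1 it was 17, and without WT day 0 replicate 2 the number lower was 33. DESeq2 called 17 higher and 47 lower.

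In KO1, 31 models were called higher and 63 lower, or 17.0% and 34.6%, where 29.1% and 29.3% of all features were called. In KO2, 17 were called higher and 61 lower, or 9.34% and 33.5%, where 25% and 25.7% of all features were called. The medians were -0.33 in KO1 and -0.40 in KO2 on the log2 scale. In every line the share called lower was above the background and the share called higher below it, but the first did not hold without every library. Without WT day 0 replicate 2, 18.1% of the models were lower in WT against 20.7% of all features. Without KO1 day 0 replicate 2, 28.6% (52 models) were lower in KO1 against 29.3%, and without replicate 1 of that group 41.2% (75 models) against 31.4%. Leaving out either KO1 day 0 library gave 29 higher in KO1, 30 higher and 59 lower in WT, and 18 higher and 66 lower in KO2. The number higher in KO2 was 9 without KO2 day 0 replicate 1, 11 without KO2 day 4 replicate 2 and 9 by DESeq2.

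Within the set, called falls were more frequent among models with many counts, as a description of counts. Of the 41 models with 1000 or more counts, 25 were called lower and 4 higher over the days in WT, against 22 lower and 2 higher in KO1 and 25 lower and 2 higher in KO2. Of the 70 with fewer than 200 counts, 6 were called lower and 14 higher in WT, against 16 lower and 17 higher in KO1 and 7 lower and 6 higher in KO2. The threshold on the total and the power of the test both depend on the count, so the classes differ in more than their level. The shares of all features called in the same classes of count were not computed, so the pattern is not read as particular to the models. The 668 SCRIPTURE rows with a test had 9.73% called higher and 30.2% lower in WT, close to the shares of the 48HRS models, and 30 tested rows with a LINC symbol, the name given to catalogued intergenic noncoding genes, had 30.0% higher and 16.7% lower. Of the same LINC rows, 26.7% were called each way in KO1, and in KO2 16.7% were higher and 26.7% lower.

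**Figure D3:**
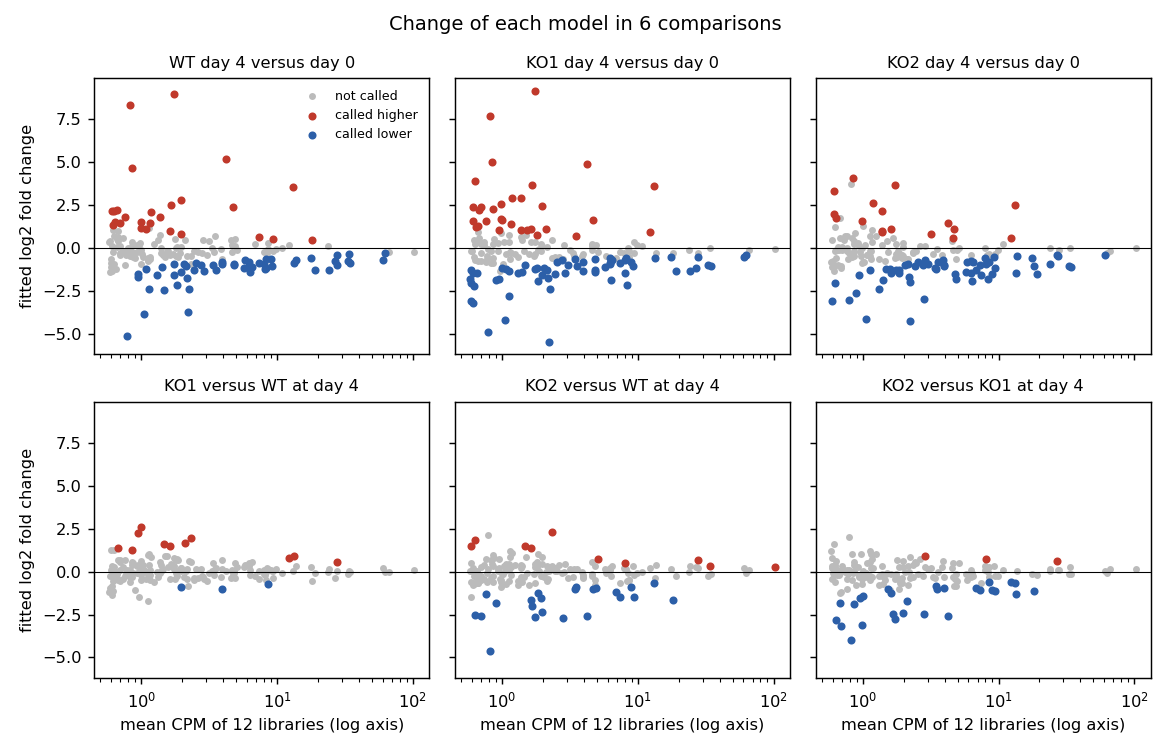
Fitted log2 fold change (vertical) of each of the 182 models against its mean CPM over the 12 libraries (horizontal, log axis) in 6 comparisons; red points were called higher, blue points lower and grey points neither. In WT, 55 blue and 26 red points appear, and the upper 2 of the red points belong to models at 0 in a group, whose fitted value is no measure of size.

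The 3 day comparisons share no library. Of the 117 models called in at least 1 line, 41 were called lower in all 3 and 10 were called higher in all 3, and 65 of the 182 were called in none. The 41 and 10 are 22.5% and 5.49% of the models, where 15.9% and 13.8% of all features were called lower and higher in all 3 lines. In all, 76 were lower in at least 1 line and higher in none, 36 were higher in at least 1 and lower in none, and 5 were called both ways. For these last counts, the shares of all features were not computed. The median log2 change of the 41 that fell was -1.11 for WT, -1.16 for KO1 and -1.24 for KO2. The 10 that rose were 48HRS.34314.2, 48HRS.2461.1, 48HRS.13933.2, 48HRS.48171.1, 48HRS.26531.1, 48HRS.26224.1, 48HRS.48389.1, 48HRS.41361.1, 48HRS.471.1 and 48HRS.29408.1, with a median of 2.27 in WT, 2.91 in KO1 and 2.33 in KO2. These classes were formed from the calls, so their medians describe the calls and add no support to them.

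**Figure D4:**
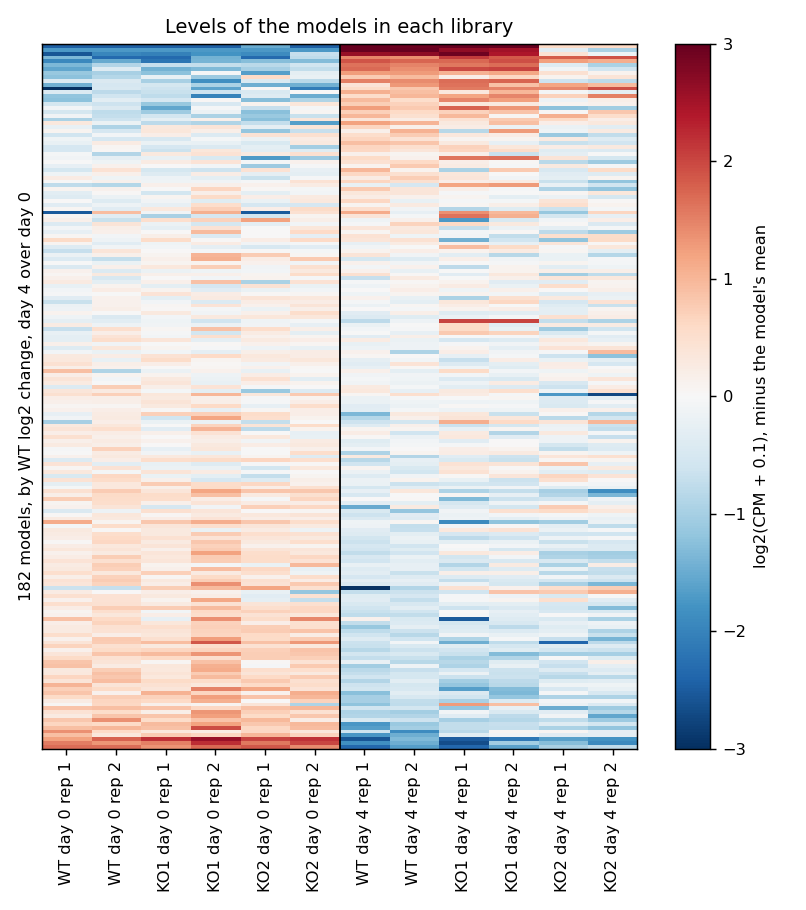
Level of each of the 182 models (rows, ordered by the WT log2 change) in each of the 12 libraries (columns), as log2(CPM + 0.1) minus the model's mean over the libraries; red is above the mean and blue below. The top rows are blue at day 0 and red at day 4 in WT and KO1 and paler in KO2, and the bottom rows run the other way in all 3 lines; the order by WT change fixes the WT columns.

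The model with the most counts hardly moved. 48HRS.8700.1 stood at 114 and 94.6 CPM in WT at day 0, 101 and 104 CPM in KO1 and 112 and 107 CPM in KO2, and at day 4 at 88.0 and 91.9, 100.1 and 95.5, and 113 and 107 CPM. Its WT change of -0.21 on the log2 scale (SE 0.09) missed the threshold (edgeR adjusted p = 0.0643), as did that of 48HRS.2010.1, at -0.25 (SE 0.11, adjusted p = 0.0571). The first passed in 4 and the second in 5 of the 18 other settings tried, among them leaving out either KO1 day 0 library (adjusted p = 0.0238 and 0.0238 for the first, 0.0095 and 0.00945 for the second). The upper-quartile scaling also called both, at an adjusted p of 0.0252 and 0.0222.

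Other high-count models fell in every line. 48HRS.35186.1 was at 72.3 and 73.3 CPM in WT, 69.2 and 79.2 CPM in KO1 and 69.8 and 68.7 CPM in KO2 at day 0, and at 44.4 and 45.7, 53.6 and 49.0, and 53.4 and 51.3 CPM at day 4. The 6 libraries of each day did not overlap, and the change was -0.69 (SE 0.09) in WT, -0.53 (SE 0.09) in KO1 and -0.40 (SE 0.09) in KO2 on the log2 scale (edgeR adjusted p = 1.39e-05, 9.89e-05 and 0.00178). 48HRS.10588.3 went from 43.0 and 44.9 CPM to 21.7 and 26.0 CPM in WT, from 41.7 and 53.9 to 24.1 and 23.0 CPM in KO1, and from 47.0 and 43.8 to 23.3 and 19.7 CPM in KO2. Its log2 change was -0.88 (SE 0.13) in WT, -1.03 (SE 0.13) in KO1 and -1.08 (SE 0.14) in KO2, past the threshold in each.

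The remaining 4 of the 8 were called lower in WT by less than 1 on the log2 scale. 48HRS.10588.2, a model with the same number as 48HRS.10588.3, fell by 0.74 (SE 0.14) in WT. 48HRS.8699.1 changed by -0.32 (SE 0.12), 48HRS.48840.1 by -0.35 (SE 0.12) and 48HRS.9669.1 by -0.41 (SE 0.15). These last 3 calls were not robust to single libraries. That of 48HRS.8699.1 was lost without WT day 0 replicate 1 (adjusted p = 0.098) or 2 (0.14), WT day 4 replicate 1 (0.189) or 2 (0.0884) and KO1 day 4 replicate 1 (0.0574) or 2 (0.0535). The call of 48HRS.48840.1 was lost without WT day 0 replicate 2 (0.119) and also without WT day 4 replicate 1 (0.238), and that of 48HRS.9669.1 without WT day 0 replicate 1 (0.0715) or 2 (0.154) or WT day 4 replicate 1 (0.28).

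Models with the same or neighbouring numbers can share reads, or be pieces of 1 transcript, which cannot be resolved without coordinates, and they are not independent. The counts of 48HRS.10588.3 were 0.913 to 1.16 times those of 48HRS.10588.2 in the 12 libraries. The run 48HRS.27788.3, 48HRS.27789.1, 48HRS.27790.1 and 48HRS.27791.1 fell together in WT by log2 changes of -0.92, -1.14, -0.996 and -0.93, all past the threshold, while in KO1 48HRS.27790.1 changed by -0.45 (SE 0.25) and was not called. 48HRS.35187.1 changed by -0.64 in WT beside -0.69 for 48HRS.35186.1, with 0.105 to 0.158 times its counts. Other neighbours parted. In KO2, 48HRS.36389.1 changed by -0.83 and 48HRS.36389.2 by 0.60, and in WT 48HRS.35189.1 changed by -0.64 and 48HRS.35190.1 by 0.01, and 48HRS.25844.1 by -0.40 and 48HRS.25845.1 by -1.30. How many separate loci the models stand for was not tested.

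The largest rises were from zero or near zero. 48HRS.48171.1 had no count in the WT or KO1 libraries at day 0 and 1 count in KO2, and at day 4 it was at 4.96 and 4.12 CPM in WT, 5.18 and 5.02 CPM in KO1 and 0.722 and 0.736 CPM in KO2. With the empty day 0 group set to a floor of 3 counts in all, it was at least 36.8-fold higher at day 4 in WT and at least 69.0-fold higher in KO1. For KO2 the ratio was 15.2 (95% counting interval 2.44 to 632). At day 4 the lowest KO1 library lay just above the highest WT library, and those of KO2 lay below both lines.

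48HRS.45129.1 had no count in any of the 6 day 0 libraries. At day 4 it was at 3.20 and 2.64 CPM in WT, 1.98 and 1.79 CPM in KO1, and 0.160 and 0.0669 CPM, 3 counts in all, in KO2. The rise was at least 23.7-fold in WT and at least 25.4-fold in KO1, and in KO2 both days were at or under the floor. Its KO2 level at day 4 was lower than that of WT by a ratio of 26.5 (interval 8.75 to 131).

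48HRS.13933.2 and 48HRS.34314.2 rose in all 3 lines, the first from near the floor and the second from well above it. In WT day 0 replicate 1, 48HRS.13933.2 had 2 counts, under the floor of 0.291 CPM for that library. Its fitted changes thus start from few counts. 48HRS.13933.2 was at 0.194 and 0.353 CPM in WT, 0.330 and 0.400 CPM in KO1 and 0.375 and 0.979 CPM in KO2 at day 0, and at 10.6 and 11.2, 13.1 and 9.29, and 2.25 and 1.47 CPM at day 4. The log2 change was 5.21 (SE 0.38) in WT, 4.88 (SE 0.32) in KO1 and 1.44 (SE 0.44) in KO2 (edgeR adjusted p = 2.64e-08, 5.82e-09 and 0.0142). 48HRS.34314.2 had the smallest adjusted p of the set in each day comparison. It went from 1.94 and 2.61 CPM to 28.4 and 26.0 CPM in WT, from 1.59 and 2.85 to 25.5 and 29.3 CPM in KO1, and from 3.09 and 3.04 to 18.0 and 16.3 CPM in KO2. These are log2 changes of 3.55 (SE 0.21), 3.59 (SE 0.19) and 2.48 (SE 0.21), and the days did not overlap in any line.

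Further rises in WT were smaller or rested on few counts. 48HRS.41361.1 had 1 count in WT at day 0 and was at 1.30 and 1.22 CPM at day 4, so that the ratio was 30.8 (interval 5.18 to 1249), and it rose in KO1 and KO2 too, by ratios of 38.2 (10.0 to 324) and 18.3 (4.80 to 155). 48HRS.2461.1 rose from 1.65 and 1.84 CPM to 9.08 and 9.22 CPM in WT, by 2.38 on the log2 scale (SE 0.36). 48HRS.30001.1 was at 0.484 and 0.706 CPM at day 0 and 4.50 and 4.06 CPM at day 4 in WT, a log2 change of 2.79 (SE 0.31), with 2.45 (SE 0.26) in KO1. It was not called in KO2, where it was at 0.749 and 0.881 CPM and then 1.04 and 0.669 CPM. 48HRS.19141.1 rose by 2.49 (SE 0.36) in WT and 3.67 (SE 0.34) in KO1, and its KO2 change of 0.60 (SE 0.49) missed the threshold (edgeR adjusted p = 0.329). Of its 270 counts, 209 came from WT and KO1 at day 4, and the other 61 were too few to enter the set. The same held for 48HRS.30001.1, with 88 counts outside those groups. The contrasts of these models with KO2 are given as descriptions.

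Among the falls, 48HRS.44988.1, 48HRS.24348.1 and 48HRS.49921.1 went to a few counts at day 4 in every line. 48HRS.44988.1 was at 1.55 and 1.55 CPM in WT, 1.21 and 1.60 CPM in KO1 and 1.78 and 1.27 CPM in KO2 at day 0, and at 0 and 0.0644, 0 and 0.0688, and 0.160 and 0.201 CPM at day 4. Its WT ratio was 44.4 (interval 7.51 to 1801). For 48HRS.24348.1 the ratio was 15.2 in WT (4.83 to 76.9), 20.3 in KO1 (6.75 to 100.4) and 19.2 in KO2 (6.17 to 96.9). 48HRS.49921.1 fell from 2.32 and 3.46 CPM to 0.0763 and 0.322 CPM in WT, from 4.67 and 6.27 to 0.0863 and 0.138 CPM in KO1 and from 4.21 and 4.60 to 0.241 and 0.201 CPM in KO2. In none of the 3 models did the days overlap in any line.

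Less steep falls in WT were those of 48HRS.33610.1 at -2.47 (SE 0.40), 48HRS.33631.1 at -2.40 (SE 0.49), 48HRS.5082.1 at -2.38 (SE 0.44), 48HRS.24843.1 at -2.16 (SE 0.34) and 48HRS.28536.1 at -1.76 (SE 0.31). All 5 had 2.02 to 4.08 CPM at day 0 as means of 2 WT libraries. Each was also called lower in KO1 and KO2, except 48HRS.33631.1, whose changes there were -0.62 (SE 0.43) and -0.65 (SE 0.45). The difference in change between KO1 or KO2 and WT did not pass for 48HRS.33631.1 (edgeR adjusted p = 0.117 and 0.106).

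**Figure D5:**
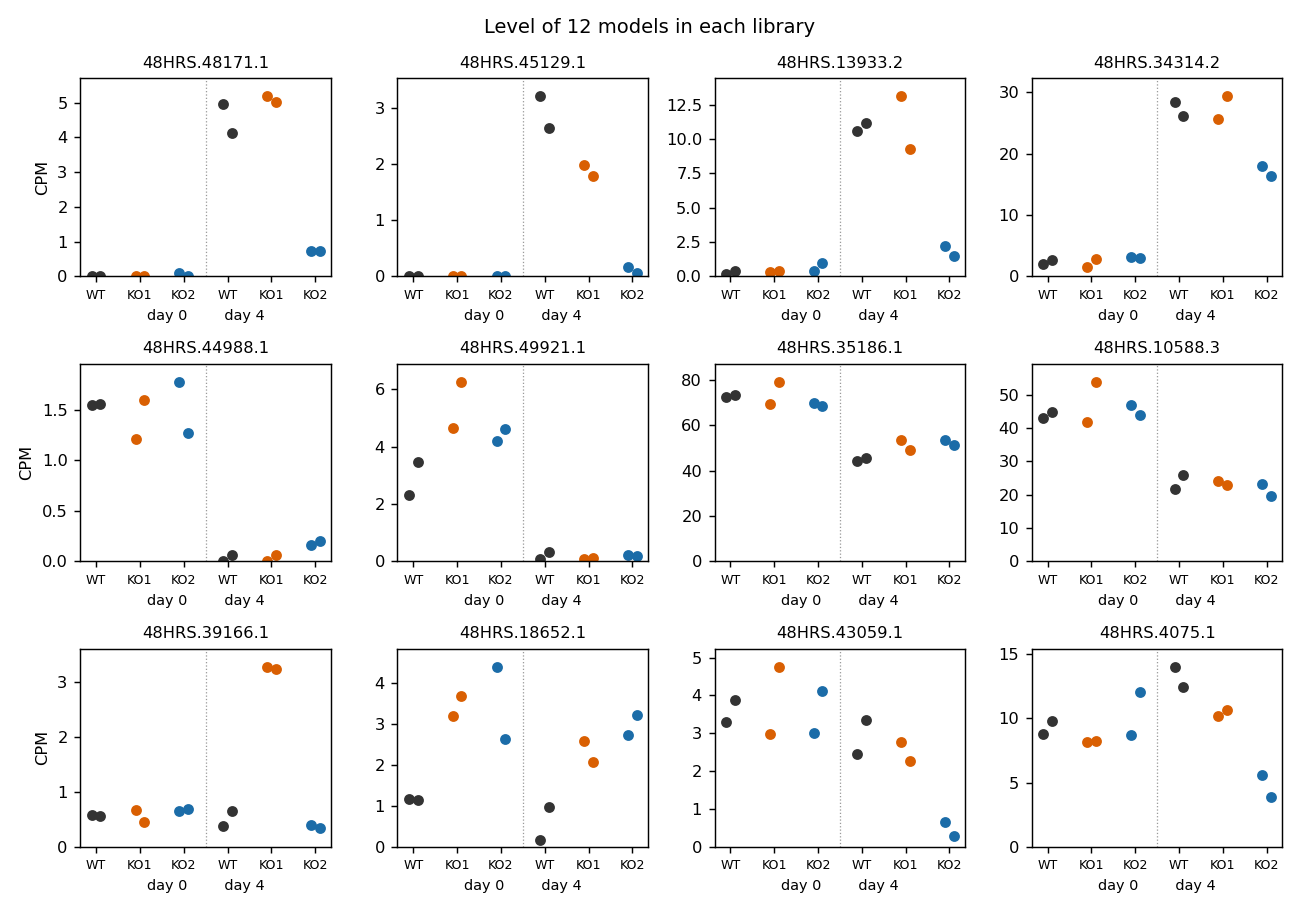
CPM of 12 models in each library (points; vertical axes start at 0 and differ between panels), for WT (black), KO1 (orange) and KO2 (blue) at day 0 and day 4. 48HRS.48171.1, 48HRS.45129.1 and 48HRS.13933.2 were high at day 4 in WT and KO1 and low in KO2, and 48HRS.39166.1 was high only in the KO1 day 4 libraries, at 3.28 and 3.23 CPM.

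Between the lines the models differed after differentiation. At day 4, KO1 had 11 models called higher than WT and 3 lower, or 6.04% and 1.65% of the 182, where 10.5% and 9.42% of all features were called. KO2 had 10 called higher and 23 lower, or 5.49% and 12.6%, where 13.5% and 14.5% of all features were called. Both clones were thus below the background in rises, and KO2 was near it in falls. KO1 against WT and KO2 against WT share the WT libraries, so their values are set side by side and not counted as separate evidence. KO2 against KO1, which does not use WT libraries, gave 3 higher and 28 lower, where 10.8% and 14.3% of all features were called and 1.65% and 15.4% of the models.

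These counts moved with single libraries. Over all features the numbers called in these 3 comparisons also rose without KO1 day 0 replicate 1, so the rise there is not a result about the models. Leaving out either KO1 day 0 library gave 15 higher for KO1 against WT and 15 higher and 28 lower for KO2 against WT. For KO1 against WT, the number higher was otherwise 5 or 6 without WT day 4 replicate 1 or 2, respectively, and 3 without KO1 day 4 replicate 1. The number lower was 0 without WT day 4 replicate 1 or KO1 day 4 replicate 1, 1 without WT day 4 replicate 2 and 7 without either KO1 day 0 library, all against 11 higher and 3 lower with every library in. For KO2 against WT, the number higher was 2 and 4 without WT day 4 replicates 1 and 2 and 4 and 5 without KO2 day 4 replicates 1 and 2, and the number lower was 13 without KO2 day 4 replicate 2. For KO2 against KO1, 18 were lower without KO1 day 4 replicate 1 and 17 without KO2 day 4 replicate 2. The number higher there was 0 without KO1 day 4 replicate 1, 1 without either KO2 day 4 library and 7, with 33 lower, without either KO1 day 0 library.

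Models lower in KO2 at day 4 included several that rose in WT and KO1. Fitted against WT, 48HRS.13933.2 was lower by a log2 difference of -2.57 (SE 0.26), 48HRS.48171.1 by -2.62 (SE 0.31) and 48HRS.30001.1 by -2.33 (SE 0.28), each past the threshold (edgeR adjusted p = 4.6e-06, 4.28e-05 and 2.2e-05). 48HRS.48173.1, whose number is close to that of 48HRS.48171.1, was at 1.37 and 0.967 CPM in WT, 1.98 and 1.44 CPM in KO1 and 0.160 and 0.201 CPM in KO2, a log2 difference of -2.61 (SE 0.61) from WT. 48HRS.23148.1 was at 1.37 and 1.29 CPM in WT, 1.55 and 1.65 CPM in KO1 and 0.241 and 0.201 CPM in KO2, a log2 difference of -2.55 (SE 0.47). Of the 113 counts of 48HRS.48173.1, 77 came from WT and KO1 at day 4, as did 80 of the 102 of 48HRS.23148.1, so both reached the threshold of 100 only through the groups where they were high. Outside WT and KO1 at day 4, 48HRS.13933.2 had 86 counts, 48HRS.48171.1 had 21 and 48HRS.30001.1 had 88, so the same held for them. The KO2 differences of these models are given as descriptions. In each of these models the KO2 libraries lay below those of WT and KO1 with no overlap. KO2 at day 4 also had the lowest definitive endoderm marker sum, 909 to 1138 CPM for 8 of 8 markers measured against 4640 to 5050 CPM in WT, and the highest pluripotency marker sum, and their part in these differences was not tested.

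48HRS.43059.1 was called lower over the days in KO2, while its changes of -0.31 (SE 0.30) in WT and -0.64 (SE 0.29) in KO1 missed the threshold (edgeR adjusted p = 0.412 and 0.0679). It was at 3.29 and 3.89 CPM in WT, 2.97 and 4.76 CPM in KO1 and 3.0 and 4.11 CPM in KO2 at day 0. At day 4 it was at 2.44 and 3.35 CPM in WT, 2.76 and 2.27 CPM in KO1 and 0.642 and 0.268 CPM in KO2. Its KO2 level lay below every other library, by a log2 difference of -2.71 (SE 0.44) from WT and -2.48 (SE 0.45) from KO1 (edgeR adjusted p = 0.000302 and 0.000873).

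In KO1 the model furthest above WT at day 4 was 48HRS.39166.1. It was at 0.581 and 0.565 CPM in WT, 0.659 and 0.445 CPM in KO1 and 0.656 and 0.686 CPM in KO2 at day 0, and at 0.381 and 0.644, 3.28 and 3.23, and 0.401 and 0.335 CPM at day 4. The KO1 difference from WT was 2.62 (SE 0.33), and the KO2 difference from KO1 was -3.13 (SE 0.36). Of its 160 counts, 85 came from the KO1 day 4 libraries, so it is among the 182 only through the group where it was high. Its differences are given as a description. 48HRS.34417.3 was at 2.16 and 1.65 CPM in KO1 against 0.305 and 0.451 CPM in WT, a difference of 2.27 (SE 0.45). 48HRS.4810.1 was at 4.40 and 4.68 CPM in KO1 against 1.60 and 1.29 CPM in WT and 1.60 and 1.20 CPM in KO2, a difference from WT of 1.66 (SE 0.24). It was already apart at day 0, at 2.09 and 2.09 CPM in KO1 and 2.06 and 2.25 CPM in KO2 against 1.07 and 0.989 CPM in WT, with differences of 1.02 (SE 0.28) and 1.07 (SE 0.31) that did not pass (edgeR adjusted p = 0.25 and 0.45). The calls of 48HRS.34417.3 and 48HRS.4810.1 for KO1 against WT at day 4 held under each of the 18 other settings tried, while KO1 calls near the threshold did not.

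The 3 models lower in KO1 differed by less than 1 on the log2 scale. They were 48HRS.30379.1 at -0.99 (SE 0.30), 48HRS.48604.1 at -0.89 (SE 0.28) and 48HRS.41840.1 at -0.74 (SE 0.23). The calls of 48HRS.30379.1 and 48HRS.41840.1 were lost without WT day 4 replicate 1 (adjusted p = 0.0998 and 0.148), WT day 4 replicate 2 (0.124 and 0.113) or KO1 day 4 replicate 1 (0.238 and 0.277).

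Of the models named here, 5 were called the same way in both clones at day 4, and none was called in opposite ways. How often all features were called the same or opposite ways in both clones was not computed. The 5 are therefore not read as particular to the models. 48HRS.18652.1 was higher, at 2.59 and 2.06 CPM in KO1 and 2.73 and 3.21 CPM in KO2 against 0.153 and 0.967 CPM in WT, by 1.95 (SE 0.47) and 2.32 (SE 0.45) on the log2 scale. It was already apart at day 0, at 3.19 and 3.69 CPM in KO1 and 4.40 and 2.64 CPM in KO2 against 1.16 and 1.13 CPM in WT, with no overlap, although those differences of 1.59 (SE 0.38) and 1.62 (SE 0.41) did not pass (edgeR adjusted p = 0.151 and 0.273). The other 3 named models that were higher in both were 48HRS.33610.1, 48HRS.42438.1 and 48HRS.4431.1. 48HRS.4431.1 had the highest total count of them. At day 4 it was at 15.6 and 15.8 CPM in WT, 25.8 and 21.4 CPM in KO1 and 26.5 and 24.6 CPM in KO2. It had fallen from day 0 in all 3 lines. 48HRS.48604.1 was lower in both, at 2.24 and 1.51 CPM in KO1 and 1.12 and 1.20 CPM in KO2 against 3.51 and 3.35 CPM in WT.

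Several of these shared calls depended on 1 library. For 48HRS.18652.1 the KO1 call was lost without WT day 4 replicate 1 (adjusted p = 0.0778) or KO1 day 4 replicate 1 (0.0724), and its KO2 call held in every setting. For 48HRS.4431.1 the KO1 call was lost without WT day 4 replicate 1 (0.0652), WT day 4 replicate 2 (0.0562) or KO1 day 4 replicate 1 (0.122), and its KO2 call held. Each call of 48HRS.33610.1 was lost without any 1 of the 4 libraries compared, at an adjusted p of 0.0572 to 0.131 in KO1 and 0.0693 to 0.126 in KO2, and by DESeq2 (0.0804 and 0.0901). The calls of 48HRS.42438.1 were lost without WT day 4 replicate 1 (0.085 in KO1, 0.0945 in KO2), WT day 4 replicate 2 (0.0795 and 0.0764), KO1 day 4 replicate 1 (0.124, KO1 call) or KO2 day 4 replicate 2 (0.18, KO2 call). The KO1 call of 48HRS.48604.1 was lost without any 1 of the 6 day 4 libraries (0.0526 to 0.297) and by DESeq2 (0.166), and its KO2 call held.

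Models higher in KO2 against WT were otherwise modest in size. 48HRS.28007.1 was at 1.04 and 1.27 CPM in KO2 against 0.305 and 0.322 CPM in WT, a log2 difference of 1.86 (SE 0.52). 48HRS.42474.1 was higher by 0.74 (SE 0.20) and 48HRS.39439.1 by 0.52 (SE 0.17). The call of 48HRS.28007.1 was lost without WT day 4 replicate 1 (adjusted p = 0.0896) or 2 (0.0801) or KO2 day 4 replicate 2 (0.104) and by DESeq2 (0.0863), and that of 48HRS.42474.1 without WT day 4 replicate 1 (0.0778) or 2 (0.0535) or KO2 day 4 replicate 1 (0.097). That of 48HRS.39439.1 was lost without KO2 day 0 replicate 1 (0.0556), WT day 4 replicate 1 (0.164) or 2 (0.098) or KO2 day 4 replicate 1 (0.27), by DESeq2 (0.122) and with no filter on low counts (0.0589).

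Undifferentiated cells gave no calls. At day 0, edgeR called 0 of the 182 models in KO1 against WT and 0 in KO2 against WT, where 0.0596% and 0.179% of all features were called higher and lower in KO1 and 0.0536% and 0.0893% in KO2. DESeq2 called 0 in each as well. At an unadjusted p under 0.05 in the edgeR test, 11 models were higher and 2 lower in KO1, and 8 higher and 2 lower in KO2. The share of all features under that unadjusted threshold was not computed, so these counts are not read as a difference of the models. The smallest adjusted p was 0.118 in KO1, for 48HRS.47341.2, and 0.273 in KO2, for 48HRS.18652.1. The zero in KO1 rested on 1 library. Without KO1 day 0 replicate 1, 22 models were called higher and 2 lower than in WT, or 12.1% and 1.1%, where 11.3% and 11.1% of all features were called, so the share higher was near the background. Without replicate 2 there were 0 of each. In KO2, 2 were called higher and 0 lower without either KO1 day 0 library.

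The test of whether the day change differed between a clone and WT passed for few models. The log2 change in KO1 was above that in WT (more positive) for 2 models and below it (more negative) for 2, where 4.99% and 4.81% of all features were called. The KO2 change was above that of WT for 1 and below it for 10, or 0.549% and 5.49%, where 6.37% and 7.5% of all features were called. A lower value here can be a weaker rise or a deeper fall. For KO2, the number below was 21 and 20 without KO1 day 0 replicates 1 and 2 and 6 without KO2 day 0 replicate 2. The number above was 2 without WT day 0 replicate 1, 4 without either KO1 day 0 library and 0 without any 1 of 7 others. For KO1, 6 were above without either KO1 day 0 library, 1 without WT day 4 replicate 1 or KO1 day 4 replicate 1 and 0 without WT day 0 replicate 2, and the number below was 9 without KO1 day 0 replicate 1, 0 without either WT day 4 library or KO1 day 4 replicate 2 and 1 without any 1 of the other libraries. DESeq2 called 0 of either kind for KO1, with an adjusted p missing for 86 models.

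Of the 182, 5 were called in opposite directions over the days in 2 lines, and they were picked out after their values were seen. The share of all features called this way was not computed. 48HRS.4075.1 went from 8.81 and 9.82 CPM to 14.0 and 12.4 CPM in WT, from 8.13 and 8.23 to 10.2 and 10.7 CPM in KO1 and from 8.71 and 12 to 5.62 and 3.88 CPM in KO2. 48HRS.45916.3 went from 18.2 and 18.6 CPM to 29.6 and 22.1 CPM in WT, from 17.0 and 26.6 to 19.4 and 16.6 CPM in KO1 and from 17.6 and 16.4 to 8.91 and 7.43 CPM in KO2. Both were called higher in WT and lower in KO2, as were 48HRS.8584.1 and 48HRS.29772.2. 48HRS.34417.3 was called lower in WT, from 0.872 and 1.34 to 0.305 and 0.451 CPM, and higher in KO1, from 0.934 and 0.890 to 2.16 and 1.65 CPM.

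The KO2 falls of those 4 models were log2 changes of -1.14 (SE 0.20) for 48HRS.4075.1, -1.06 (SE 0.22) for 48HRS.45916.3, -1.0 (SE 0.19) for 48HRS.8584.1 and -1.45 (SE 0.36) for 48HRS.29772.2, each past the threshold in every setting. Their WT rises were smaller, at 0.50 (SE 0.18), 0.49 (SE 0.19), 0.62 (SE 0.16) and 1.0 (SE 0.32), and were the less stable side. That of 48HRS.45916.3 was lost without any 1 of 9 libraries, at an adjusted p of up to 0.348 without WT day 4 replicate 1, with a replicate block (0.051) and with upper-quartile factors (0.0735). The WT rise of 48HRS.4075.1 was lost without WT day 0 replicate 1 (0.141) or 2 (0.0649) or WT day 4 replicate 1 (0.143), that of 48HRS.8584.1 without WT day 0 replicate 2 (0.0506), and that of 48HRS.29772.2 without WT day 0 replicate 1 (0.11) or WT day 4 replicate 2 (0.102). For 48HRS.34417.3 the WT fall was lost without WT day 0 replicate 2 (0.183) and also without WT day 4 replicate 1 (0.105), and the KO1 rise without KO1 day 4 replicate 1 (0.132). DESeq2 did not call the WT rises of 48HRS.4075.1 (0.0555) and 48HRS.29772.2 (0.0885) or the changes of 48HRS.34417.3 in WT (0.0745) and KO1 (0.132).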

How the data were processed

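The authors deposited raw read counts for 12 RNA-seq libraries of TruSeq Stranded mRNA (poly(A)) type, made with Bowtie2 2.1.0 and HTSeq 0.6.1 on hg19, per the submitters' processing notes. Neither strand setting nor annotation is given in the sources used here, so a model that overlaps a gene on the other strand may hold its reads. Rows for unassigned reads were left out of library totals; reads outside any feature were 29.2% to 30.5%. The 8 ChIP-seq samples were not analysed here.

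All 54435 rows were read and 16792 tested after edgeR's filterByExpr, the 182 models among them. A quasi-likelihood model of edgeR 4.0.16 (R 4.3.3) with TMM factors (0.937 to 1.05) was fitted to 6 groups of 2 libraries, with 6 residual degrees of freedom, Benjamini-Hochberg adjustment over all 16792 and a threshold of 0.05. SE is the log2 change divided by the square root of F. Models at 0 in a group are given as bounds, with 3 counts in all as that group's floor (0.133 to 0.294 CPM for a single library), and those with 1 to 3 counts as ratios with an exact 95% interval; both cover counting error only. Alternatives were DESeq2 1.42.0, other scaling factors, no filter, a replicate block, only the libraries compared, and each library left out. The fits were tested on simulated counts.

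The models, marker lists and alternatives were chosen with earlier results of these data known. Models are named by the highest totals, the largest called changes of each comparison (1 CPM or more in the higher group), shared or opposite calls in both clones, no count in a group, and nearness to the threshold; the 5 with opposite day changes, the examples in the libraries that stand apart, and the models with neighbouring numbers were added after values were seen. Figures were drawn with matplotlib 3.10.9.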

Additional observations from a re-analysis of the deposited data

Results flagged for a closer look

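The following models were singled out because their change from day 0 to day 4 differed between a clone and WT by the edgeR interaction test. Values are differences of log2 changes, clone minus WT, and no cause was tested. In KO1, the log2 change of 48HRS.39166.1 was above that in WT by 2.69 (SE 0.57, adjusted p = 0.00915), and the call was lost without WT day 0 replicate 2 (adjusted p = 0.0606). That of 48HRS.34417.3 was above by 2.59 (SE 0.61, adjusted p = 0.0158), lost without WT day 0 replicate 2 (0.125), WT day 4 replicate 1 (0.0725) or KO1 day 4 replicate 1 (0.0702). For 48HRS.1962.1 the KO1 difference was -1.02 (SE 0.31, adjusted p = 0.0476), lost without any 1 of 9 libraries (0.0518 to 0.241), by DESeq2 (0.0601) and with only the libraries compared (0.0999). For 48HRS.8584.1 it was -0.84 (SE 0.22, adjusted p = 0.0268), lost without any 1 of 6 libraries (0.053 to 0.116), by DESeq2 (0.0912) and with only the libraries compared (0.0572).

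In KO2, 1 named model had a log2 change above that in WT, 48HRS.28007.1 at 2.72 (SE 0.84, adjusted p = 0.043), a call lost without any 1 of the 8 WT and KO2 libraries (0.0613 to 0.151). The log2 change was below that in WT for 48HRS.13933.2, which rose less, at -3.78 (SE 0.73, adjusted p = 0.00316), which was lost without KO2 day 0 replicate 2 (-2.95, adjusted p = 0.102). 48HRS.30001.1, which was called higher in WT and not called in KO2, stood at -2.74 (SE 0.53, adjusted p = 0.00313), 48HRS.43059.1, which fell in KO2, at -2.68 (SE 0.55, adjusted p = 0.00435) and 48HRS.29772.2, which rose in WT and fell in KO2, at -2.45 (SE 0.48, adjusted p = 0.00356). Among the models called in opposite directions over the days, 48HRS.45916.3 differed by -1.55 (SE 0.29), 48HRS.4075.1 by -1.64 (SE 0.27) and 48HRS.8584.1 by -1.62 (SE 0.24), with adjusted p of 0.00246, 0.000925 and 0.000524. These last 6 calls held in every one of the 18 other settings. Outside WT and KO1 at day 4, 48HRS.13933.2 had 86 counts and 48HRS.30001.1 had 88, too few to enter the set. Both are in it only through groups where they were high. Their KO2 differences are given as descriptions, and the settings do not remove that limit. The summed definitive endoderm markers were 909 to 1138 CPM in KO2 and 4640 to 5050 CPM in WT at day 4, and their part in these differences was not tested.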

How the results depend on the processing

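Of 75 named results, 45 kept their direction and side of the threshold in all 18 other settings, 27 lost the call in at least 1, 3 gained one and 0 reversed. DESeq2 called 17 models higher in WT over the days, 9 in KO2 over the days, 5 higher in KO2 than WT at day 4, 0 higher and 0 lower for the KO1 minus WT change and 0 higher for the KO2 minus WT change; its adjusted p was missing for 38 models in KO1 against WT at day 4, 6 in KO2 against WT, and 86 and 54 in the differences of change. Without the filter on low counts, KO1 had 6 lower than WT at day 4 and 4 higher at day 0, KO2 had 2 higher at day 0, the KO1 minus WT change had 5 higher and 6 lower and the KO2 minus WT change 4 higher. With only the libraries compared, KO1 had 8 lower than WT at day 4, KO2 had 10 higher than KO1 at day 4 and 2 higher than WT at day 0, the KO1 minus WT change had 0 lower, and the KO2 minus WT change 2 higher and 18 lower. The cause of these moves was not tested.

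Leaving out 1 library at a time gave 15 to 30 higher and 33 to 59 lower in WT over the days, 24 to 31 and 45 to 75 in KO1, and 9 to 18 and 44 to 66 in KO2. At day 4 it gave 3 to 15 higher and 0 to 7 lower for KO1 against WT, 2 to 15 and 13 to 28 for KO2 against WT, and 0 to 7 and 17 to 33 for KO2 against KO1. At day 0 it gave 0 to 22 higher and 0 to 2 lower for KO1 and 0 to 2 and 0 to 0 for KO2, and for the differences of change 0 to 6 and 0 to 9 (KO1) and 0 to 4 and 6 to 21 (KO2). A lone library left in a group is assumed to vary like the others. The upper-quartile factors gave 24 and 58 for WT, 29 and 70 for KO1 and 14 and 64 for KO2 over the days. Replicate numbers are only names here: correlations of the replicate differences between groups ran from -0.04 to 0.15 over all features and from -0.14 to 0.26 over the models in 15 pairs of groups. A fit with the replicate number as a block called 25 and 56 for WT, 31 and 67 for KO1 and 15 and 62 for KO2 over the days, 12 and 3, 11 and 25, and 4 and 30 for KO1 against WT, KO2 against WT and KO2 against KO1 at day 4, and 2 and 3 (KO1) and 1 and 10 (KO2) for the differences of change. Models under about 0.294 CPM cannot be told from absent at this depth.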
